A study of Ovis aries with 8 samples.

Results

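Nuclear receptors and the coregulators they recruit were examined in the liver transcriptome of suckling lambs given milk replacer at 2 levels. Of 35 listed genes, 34 were found by symbol among the 27729 genes of the table, 27 receptors and 7 coregulators, and RXRA was not analysed here. The animals were preweaning Assaf lambs, a dairy sheep breed. In one group of 4, ADL 1 to ADL 4, the replacer was offered ad libitum (192 mL/kg LBW), and in the other 4, RES 1 to RES 4, intake was restricted to 120 mL/kg LBW. Slaughter ages were 33 to 36 days in both groups, and weights were 10.4 to 12.45 kg in ADL and 7.5 to 8.7 kg in RES. No drug, transgene or surgery is given in the labels for either group. Each library of polyadenylated RNA came from the liver of 1 lamb, and the comparison asks how the restricted allowance altered liver gene expression. Values are TPM, reads scaled to gene length and to the same total in each lamb, and values after ± are SDs.

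Nuclear receptors are transcription factors that bind DNA and are switched by small lipophilic ligands such as fatty acids, oxysterols, steroids, retinoids and vitamin D. Many bind DNA as a pair with a retinoid X receptor. Without an activating ligand they tend to hold corepressors such as NCOR1, and on activation they exchange these for coactivators of the NCOA family and for the Mediator complex through MED1. In liver, HNF4A maintains hepatocyte identity, PPARA drives fatty acid oxidation in fasting, the NR1H pair (the liver X receptors, LXR) governs cholesterol export and lipogenesis, and NR1I2 (PXR) and NR1I3 (CAR) induce enzymes that clear drugs and steroids.

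The libraries held 15134039 to 17879918 reads in genes. Across all genes, ADL 3 lay apart from its group. On the principal component with most variance (38.1%), scores were -46.2 to -34.3 in ADL 1, ADL 2 and ADL 4, 14.8 to 20.6 across RES, and 46.3 in ADL 3. Counts of members that passed are therefore given with all 8 lambs and again without ADL 3, a choice made with earlier results of these data known. So are the fold changes of members that passed without ADL 3. Many other fold changes are given with all 8 lambs only, and those without ADL 3 were not necessarily the same. Hepatocyte markers dominated every library (10 of 10 markers measured, summed at 112900 to 191700 TPM). Summed markers of other cells were far lower, at 350 to 576 TPM for sinusoidal endothelium (10 genes), 1179 to 1604 for macrophages (9), 410 to 694 for stellate cells and fibroblasts (12), 131 to 290 for cholangiocytes (8) and 32.9 to 54.9 for lymphocytes (9), and no marker was at 0 in all lambs. In whole tissue, fewer cells of a type and less RNA per cell cannot be told apart.

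Leaving ESRRG aside, member means over 8 lambs ran from 0.151 TPM (PPARG) to 164 TPM (HNF4A). HNF4A was the most abundant, at 174 ± 71.7 TPM in ADL and 155 ± 25.4 in RES (SD, n = 4 each). Its lowest lamb, at 113 TPM, was above the highest lamb of any other member, NR1I2 at 105 TPM. NR1I2, NR1H3, NR2F6 and PPARA followed with means of 38.4 to 59.0 TPM over 8 lambs, and their ranges overlapped, so their order is not resolved. ESR1, ESRRA, HNF4G, NR1H2, NR1I3, NR2F2 and RXRB lay between 19.4 and 31.6 TPM. At the other end, NR4A1, NR6A1, PPARGC1B, NR3C2, NR4A2, NR4A3 and PPARG had means of 0.151 to 0.923 TPM. ESRRG had 0 to 3 reads per lamb, which is too few for any comparison. Levels of different genes rest on the gene lengths listed in the table, 1691 to 36783 nucleotides for the members, so a listed exon that liver does not use lowers a gene's TPM.

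**Figure D1:**
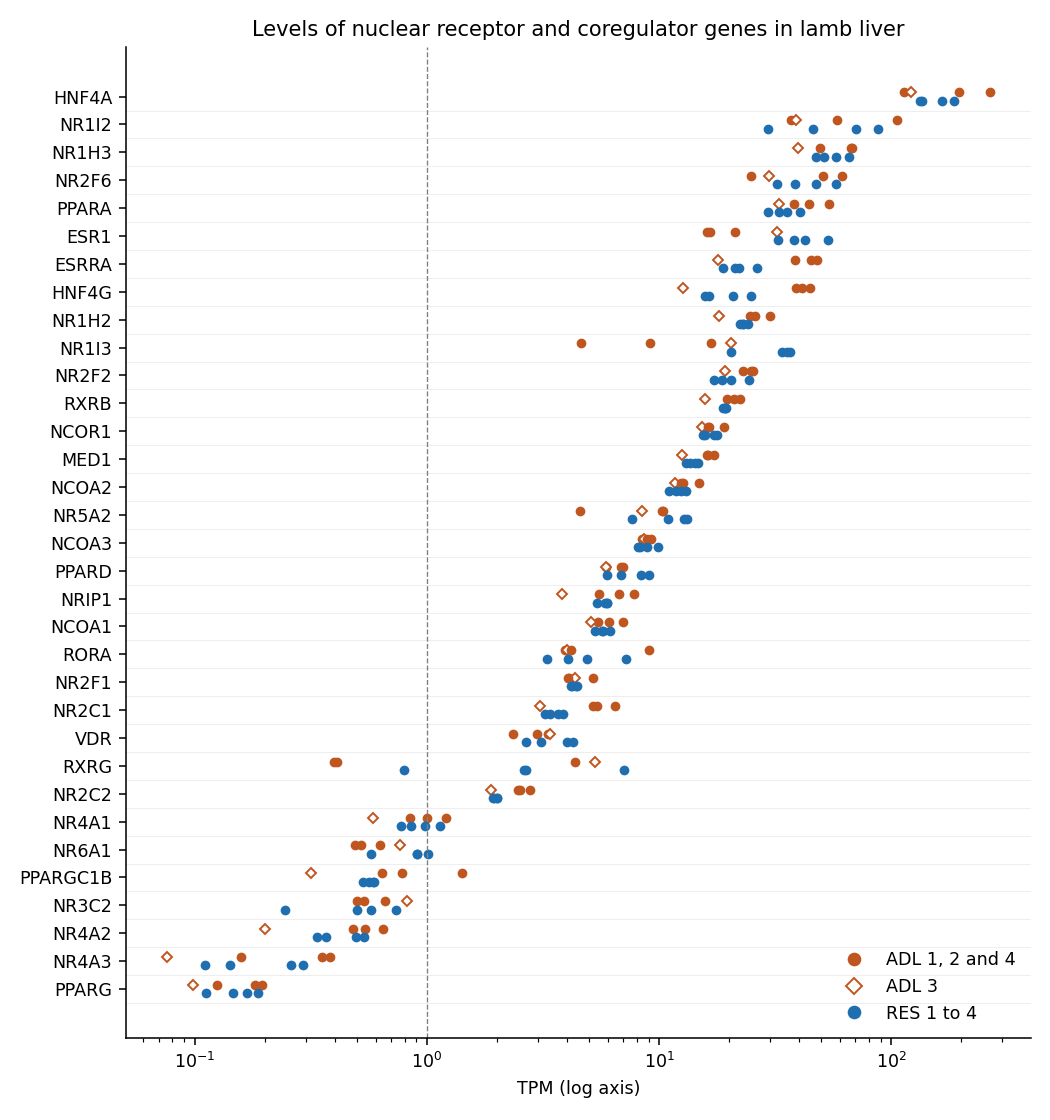
TPM of each member in each lamb on a log axis, ordered by mean over 8 lambs, with ADL lambs in orange (ADL 3 as an open diamond) and RES lambs in blue; the dashed line marks 1 TPM, the mean required for testing. HNF4A lies above all other members, and ESRRG, at 0 in 2 RES lambs, is not drawn.

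NCOR1 and the NCOA coactivators varied little between lambs and several receptors varied much. The coefficient of variation over 8 lambs was 6.25% for NCOA3, 7.79% for NCOR1, 9.33% for NCOA2 and 10.3% for NCOA1, against a median of 23.5% over all 13812 genes tested. The median of the 26 members tested was 19.5%. This was not a divide between coregulators and receptors. The receptors NR2F1 (8.22%) and RXRB (9.79%) were as steady, and the coregulators NRIP1 (19.5%) and PPARGC1B (48.0%, below the filter) varied more. The most variable tested member was RXRG (83.2%), followed by NR1I3 (54.9%), HNF4G (47.3%) and NR1I2 (45.4%). RXRG, the retinoid X receptor least widely expressed among tissues, was at 4.32, 0.398, 5.27 and 0.41 TPM in ADL 1 to ADL 4 and at 7.07, 0.796, 2.68 and 2.62 TPM in RES 1 to RES 4. High and low lambs occurred in both groups, and counts behind these values ran from 8 to 142 reads.

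Within families, the genes differed in their share of the message. PPARA made up 77.7 to 89.9% of the summed TPM of the 3 peroxisome proliferator-activated receptors, PPARD 9.88 to 22.0% and PPARG, the adipocyte receptor, at most 0.439%. PPARG is listed at 16960 nucleotides, against 2152 for PPARA and 1691 for PPARD, which makes its share of TPM smaller than its share of reads. Its reads per lamb were 15 to 27, beside 504 to 880 for PPARA and 76 to 142 for PPARD. RXRB exceeded RXRG in all 8 lambs, with 73.2 to 98.3% of their sum. RXRA was not analysed, so this is not a share of the whole retinoid X receptor family. NCOA2 held 43.9 to 51.6%, NCOA3 29.4 to 34.4% and NCOA1 19.0 to 24.2% of the NCOA sum, the same order in TPM in every lamb. NCOR1 stood at 1.10 to 1.51 times NCOA2 in TPM. Both orders rest on the listed lengths, 16528, 15492 and 10231 nucleotides for NCOA1, NCOA2 and NCOA3 and 8727 for NCOR1. In reads, NCOA1 (693 to 879) and NCOA3 (704 to 823) overlapped. NCOA2 (1448 to 1951 reads) lay above NCOR1 (1128 to 1273). These shares compare genes within a lamb and are descriptions without a test.

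With all 8 lambs, no member passed. Of the 26 members with a mean of at least 1 TPM, 0 had a limma adjusted p under 0.05, where 0.00724% of all tested genes did (1 of 13812). At an unadjusted limma p under 0.05 there were 3 members (ESR1, NR1I3 and ESRRA), or 11.5%, against 9.7% of all genes. The groups did not overlap in 2 of 26 members, both higher in RES, where 4.48% of all genes separated and 2.8% did so with RES higher. The authors' deposited table, from DESeq2, lists an adjusted p for 33 members, of which 0 are under 0.05 (2.3% of all genes there) and 1, NR1I3, is under 0.1 (3.5% of all genes there). Fold changes are RES over ADL on the log2(TPM + 0.5) scale, which understates those of low genes. The median log2 fold change was -0.02 over members (9 higher, 17 lower) and -0.04 over all genes.

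Without ADL 3, 5 of 26 members passed, where 10% of all tested genes did (1382 of 13815). ADL 3 was singled out with its place on the RES side known, and p-values without it do not account for that choice. NR1I3 and ESR1 were higher in RES (2.42% of all genes were called higher) and ESRRA, HNF4G and NR2C1 lower (7.59% called lower). The same 5 passed after rescaling by median of ratios (8.33% of all genes), which moved the median of all genes without ADL 3 from -0.13 to 0.01 and changed the sign split of members from 7 higher and 19 lower to 14 and 12. ESR1, ESRRA and HNF4G passed without the filter on low values as well (3 of 34 members against 3.9% of all genes), and those 3 with NR1I3 passed when RES 4 was also left out (4 of 27 against 8.28%). Sample quality weights over 8 lambs, lowest for ADL 3 (0.16), gave 5 members against 14.3% of all genes. Leaving out any lamb other than ADL 3 gave 0 members. Without ADL 3 the groups did not overlap in 9 of 26 members, 2 higher and 7 lower in RES, against 27.8% of all genes. ADL 3 was the lowest of the 8 lambs in 12 of 26 members (46.2%) and in 42.6% of all genes, and it was the highest in 0 of 26 members and 6.53% of all genes. Its 10 most abundant genes took 31.0% of TPM, against 18.7 to 26.0% in the other 7 lambs. TPM has a fixed total, so a larger share in a few genes lowers the others, and the part of this in these counts was not tested. ADL 3 lay outside the range of the other ADL lambs in 19 of 26 members and in 72.7% of all genes.

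**Figure D2:**
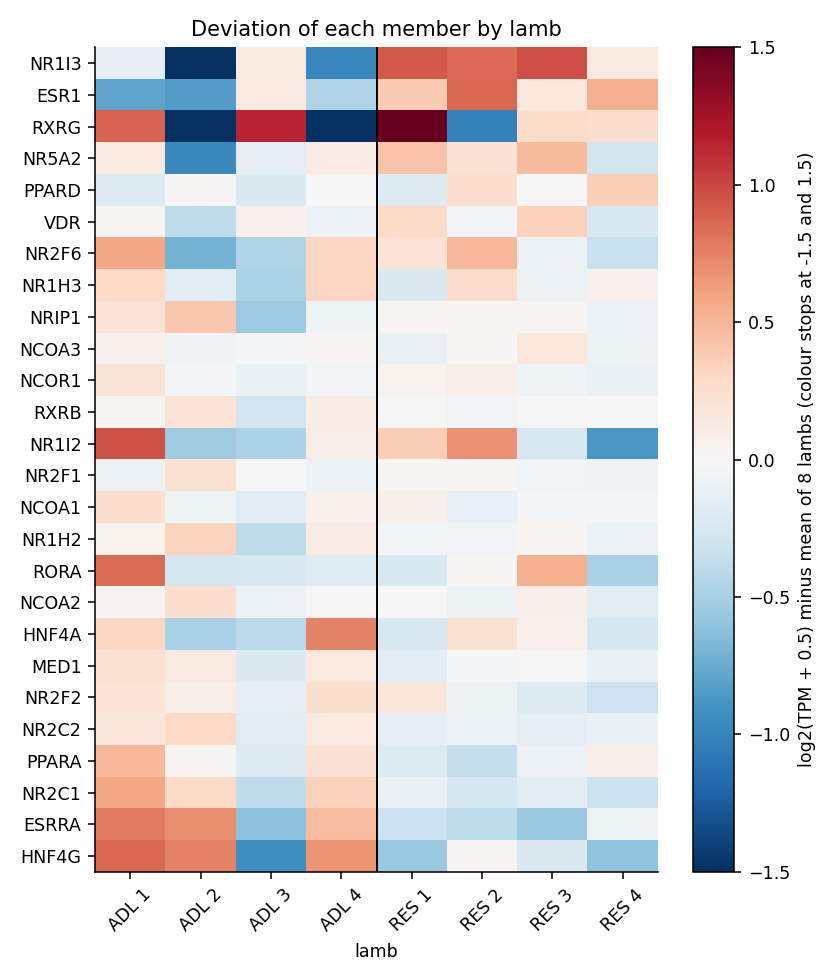
Log2(TPM + 0.5) of the 26 members tested, as the deviation from the mean of 8 lambs, by lamb and ordered by fold change. NR1I3 and ESR1 at the top are low in ADL 1, ADL 2 and ADL 4 compared with RES, ESRRA and HNF4G at the bottom are high in them, and ADL 3 is nearer to RES in these rows.

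**Figure D3:**
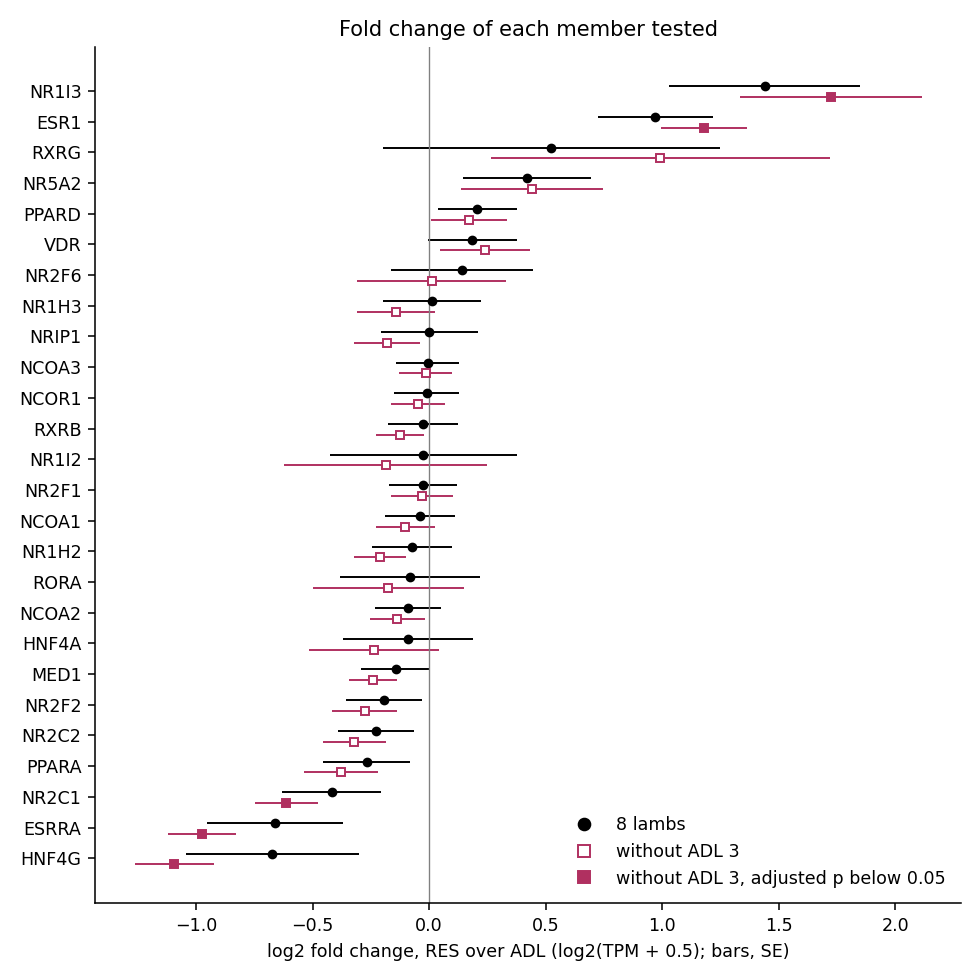
Log2 fold change, RES over ADL, with SE for each member tested, from 8 lambs (black circles) and without ADL 3 (red squares, filled where the limma adjusted p is under 0.05). Only NR1I3, ESR1, NR2C1, ESRRA and HNF4G have filled squares, and RXRG has the widest error.

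The xenobiotic sensor NR1I3 had the largest difference among members. It lies on chromosome 1 at 110629757 to 110648062 (minus strand, 10 exons) in the coordinates of the authors' table, which names no genome build. Its span meets that of PCP4L1 on the other strand by 8 nucleotides. Its level was 16.8, 4.61, 20.4 and 9.16 TPM in ADL 1 to ADL 4 and 35.4, 33.9, 36.7 and 20.5 TPM in RES 1 to RES 4. Every RES lamb exceeded every ADL lamb, but ADL 3 and RES 4 nearly met, at 20.38 and 20.46 TPM. Mean TPM was 2.48-fold higher in RES (31.6 ± 7.53 against 12.7 ± 7.15), a log2 fold change of 1.44 (SE 0.41) that did not pass (limma adjusted p = 0.306). In the authors' deposited table the shrunken log2 fold change is 0.93 with an adjusted p of 0.0931. Without ADL 3 NR1I3 rose, with a log2 fold change of 1.72 (SE 0.39 and adjusted p = 0.034), a call lost without the filter on low values (adjusted p = 0.0597).

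Its close relative NR1I2, which shares many ligands and target genes with it, showed no such pattern. NR1I2 was at 105, 37.1, 38.8 and 58.0 TPM in ADL 1 to ADL 4 and at 70.2, 87.4, 45.8 and 29.3 TPM in RES 1 to RES 4, and both groups held high and low lambs. Its log2 fold change was -0.02 (SE 0.40). The ratio of NR1I3 to NR1I2 TPM, which no scaling between libraries alters, was 0.124 to 0.159 in ADL 1, ADL 2 and ADL 4, 0.525 in ADL 3 and 0.388 to 0.802 in RES. Of 10 tested genes known as targets of these receptors, 0 passed in 8 lambs, and 6 had positive and 4 negative fold changes. At an unadjusted limma p under 0.05 there were 2, where 9.7% of all genes passed that limit. In the authors' deposited results a single gene is higher, that named CYP2C19 there (99.1 ± 24.3 TPM in ADL, 222 ± 97.8 in RES; adjusted p = 0.041), and a single gene is lower, GADD45B (adjusted p = 0.00914). GADD45B, which mouse work ties to NR1I3 as an induced gene and a coactivator, had 22.9, 13.0, 14.7 and 35.7 TPM in ADL 1 to ADL 4 and 6.82, 7.73, 7.35 and 10.7 TPM in RES 1 to RES 4. All RES lambs were below all ADL lambs, and GADD45B fell when ADL 3 was left out (log2 fold change -1.40, SE 0.31, adjusted p = 0.0324). NR1I3 and GADD45B stood in opposite order between the groups.

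**Figure D4:**
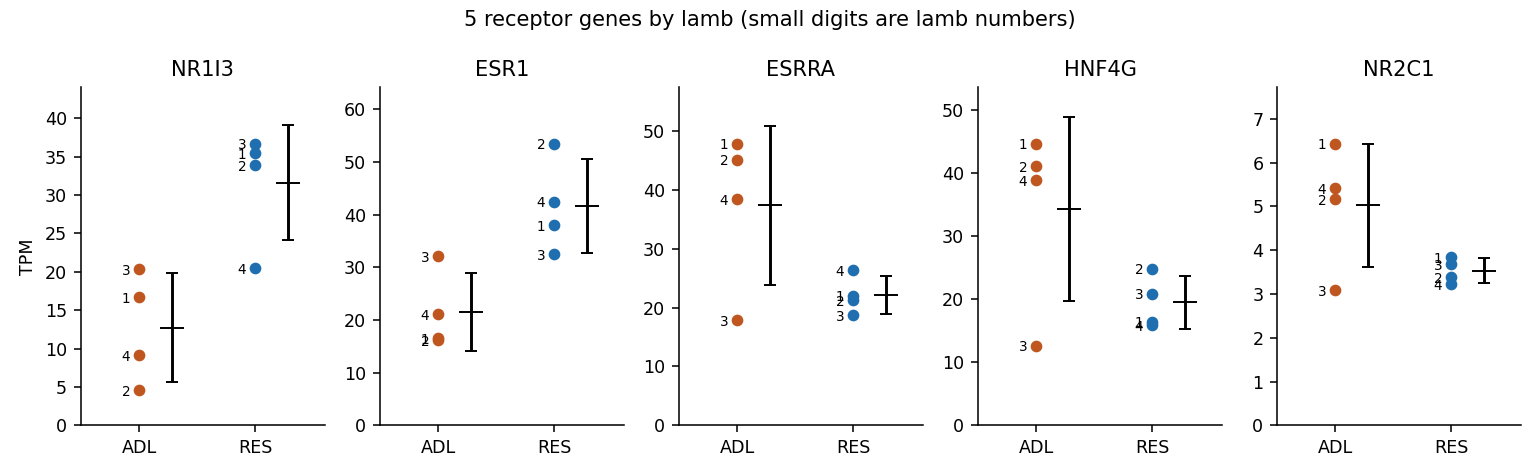
TPM by lamb of the 5 members that passed without ADL 3, with lamb numbers beside the points and group mean and SD (n = 4) as bars. RES lies above ADL 1, ADL 2 and ADL 4 in NR1I3 and ESR1 and below them in ESRRA, HNF4G and NR2C1, and ADL 3 is the lowest of 8 in the latter 3.

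ESR1, the oestrogen receptor alpha, which in rodent liver takes part in sex-dependent lipid metabolism, was also higher in RES. It lies on chromosome 8 at 75364025 to 75648724 (plus strand, 8 exons). Its level was 16.6, 16.1, 32.2 and 21.1 TPM in ADL 1 to ADL 4 and 38.1, 53.5, 32.6 and 42.5 TPM in RES 1 to RES 4. The groups did not overlap, but ADL 3 lay just under RES 3. Mean TPM was 1.94-fold higher in RES (41.6 ± 8.86 against 21.5 ± 7.46), with a log2 fold change of 0.97 (SE 0.25, limma adjusted p = 0.282). The adjusted p is 0.124 in the authors' deposited table. Leaving out ADL 3, ESR1 rose by 1.18 (SE 0.18, adjusted p = 0.0127). After median-of-ratios rescaling of the 8 lambs neither ESR1 nor NR1I3 separated the groups, and after quantile normalization 1 member did.

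Of 12 further receptors tested, 0 passed in 8 lambs, and their median log2 fold change was 0.12 against -0.04 over all genes. At an unadjusted limma p under 0.05 there were 2, where 9.7% of all genes passed that limit. The sex of the lambs is not given in the labels and its part in the values of ESR1 was not tested.

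ESRRA, an orphan receptor that with PGC-1 coactivators raises genes of mitochondrial respiration, was lower in RES than in 3 of the ADL lambs. It lies on chromosome 21 at 41806384 to 41813411 (plus strand, 6 exons). Its level was 47.9, 45.2, 17.96 and 38.5 TPM in ADL 1 to ADL 4 and 22.1, 21.3, 18.8 and 26.4 TPM in RES 1 to RES 4. ADL 3 was below every RES lamb and the other ADL lambs were above every one. With 8 lambs ESRRA did not pass (log2 fold change -0.66, SE 0.29, limma adjusted p = 0.504). Without ADL 3 ESRRA fell by 0.98 (SE 0.15, adjusted p = 0.011), and mean TPM was 1.98-fold higher in the 3 ADL lambs than in RES. The ratio of ESR1 to ESRRA TPM was 0.346 to 0.548 in ADL 1, ADL 2 and ADL 4, 1.79 in ADL 3 and 1.61 to 2.52 in RES.

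Of 8 tested genes of oxidative metabolism known as targets of the oestrogen-related receptors, 0 passed in 8 lambs (1 at an unadjusted limma p under 0.05) and 6 had negative fold changes. Without ADL 3 their median log2 fold change was -0.39 against -0.13 over all genes. In that fit 7.59% of all genes were called lower, and 2 of these 8 passed, both lower. The isocitrate dehydrogenase subunit IDH3A of the citric acid cycle was among them (-0.80, SE 0.20, adjusted p = 0.042) and did not pass after rescaling (0.0598).

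HNF4G is a paralog of HNF4A that binds the same DNA element. It lies on chromosome 9 at 51410946 to 51545405 (plus strand, 12 exons). Its level was 44.6, 41.0, 12.6 and 38.8 TPM in ADL 1 to ADL 4 and 16.4, 24.8, 20.9 and 15.8 TPM in RES 1 to RES 4. ADL 3 was again the lowest lamb, below all of RES, and the other ADL lambs lay within 38.8 to 44.6 TPM. It did not pass with 8 lambs (log2 fold change -0.67, SE 0.37, limma adjusted p = 0.614). Without ADL 3 HNF4G fell by 1.09 (SE 0.17, adjusted p = 0.0127), a 2.13-fold difference in mean TPM.

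HNF4A itself was at 196, 113, 121 and 266 TPM in ADL 1 to ADL 4 and at 135, 185, 166 and 132 TPM in RES 1 to RES 4. The RES values lay inside the ADL range, with a log2 fold change of -0.09 (SE 0.28). The ratio of HNF4G to HNF4A TPM was 0.119 to 0.134 in RES, 0.105 in ADL 3 and 0.146 to 0.363 in ADL 1, ADL 2 and ADL 4. Of 18 tested HNF4 target genes, 0 passed in 8 lambs and 13 had positive fold changes (median 0.23). At an unadjusted limma p under 0.05 there were 7, where 9.7% of all genes passed that limit. Without ADL 3, 3 fell and 1 rose, where 7.59% of all genes were called lower and 2.42% higher. CPS1 of the urea cycle (-1.18, SE 0.18, adjusted p = 0.0117), tyrosine aminotransferase TAT (-0.96, SE 0.20, adjusted p = 0.0265) and ACMSD of tryptophan breakdown (-3.25) were lower. PCK1 of gluconeogenesis was higher (0.82). In the authors' deposited table, 2 of the 18 are lower and 1 is higher at an adjusted p under 0.05 (2.3% of all genes there). ACMSD and CPS1 are the lower ones (adjusted p = 1.88e-06 and 0.00914). APOH, a plasma glycoprotein, is the higher one (adjusted p = 0.039), with 3415 ± 577 TPM in ADL and 5342 ± 1278 in RES.

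The testicular orphan receptors NR2C1 and NR2C2, which bind direct repeats as a pair, were both lower in RES than in ADL 1, ADL 2 and ADL 4. NR2C1 (chromosome 3 at 130924057 to 130958058, minus strand, 14 exons) was at 6.43, 5.17, 3.08 and 5.42 TPM in ADL 1 to ADL 4 and at 3.85, 3.38, 3.68 and 3.22 TPM in RES 1 to RES 4. ADL 3 was the lowest lamb. With 8 lambs it did not pass (log2 fold change -0.42, SE 0.21, limma adjusted p = 0.577), and without ADL 3 NR2C1 fell by 0.61 (SE 0.13, adjusted p = 0.0312). That call was lost without the filter on low values (0.0638) and when RES 4 was left out as well. NR2C2, at 2.41 ± 0.378 TPM in ADL and 1.97 ± 0.0397 in RES, did not pass with or without ADL 3 (adjusted p = 0.707 and 0.159). Its 4 RES lambs lay within 1.93 to 2.01 TPM.

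PPARA, the fatty acid sensor, was at 53.7, 38.2, 32.9 and 44.0 TPM in ADL 1 to ADL 4 and at 33.0, 29.5, 35.6 and 40.5 TPM in RES 1 to RES 4. The groups overlapped, since RES 4 was above ADL 2 and ADL 3. PPARA did not pass with 8 lambs (log2 fold change -0.27, SE 0.19, limma adjusted p = 0.696) or without ADL 3 (-0.38, SE 0.16, adjusted p = 0.156). The table gives this PPARA record no chromosome position. PPARD averaged 6.40 ± 0.587 TPM in ADL and 7.54 ± 1.39 in RES. PPARG averaged 0.149 ± 0.0457 and 0.153 ± 0.0326 TPM, from 15 to 27 reads per lamb.

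Targets of PPARA differed more between lambs than the receptor did. Of 20 tested, 0 passed in 8 lambs, 16 had negative fold changes and the median was -0.49. At an unadjusted limma p under 0.05 there were 6, where 9.7% of all genes passed that limit. Without ADL 3, 7 fell and 0 rose, where 7.59% of all genes were called lower and 2.42% higher. The median in that fit was -0.89 against -0.13 over all genes. Of the 7, 4 passed after rescaling, where 3.87% of all genes were called lower. PLIN2, which codes for a lipid droplet coat protein, was at 215, 303, 13.5 and 193 TPM in ADL 1 to ADL 4 and at 18.8, 26.1, 14.6 and 13.01 TPM in RES 1 to RES 4. ADL 3 lay within the RES range and the other ADL lambs far above it, and PLIN2 fell when ADL 3 was left out (-3.69, SE 0.26, adjusted p = 0.000719). PLIN2 and the lipase inhibitor gene ANGPTL4 are lower and the desaturase gene FADS2 higher in the authors' deposited table (adjusted p = 0.000229, 0.00398 and 0.00699). FADS2 was at 20.3, 57.7, 53.6 and 22.9 TPM in ADL 1 to ADL 4 and at 210, 431, 185 and 44.0 TPM in RES 1 to RES 4, with RES 4 inside the ADL range.

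**Figure D5:**
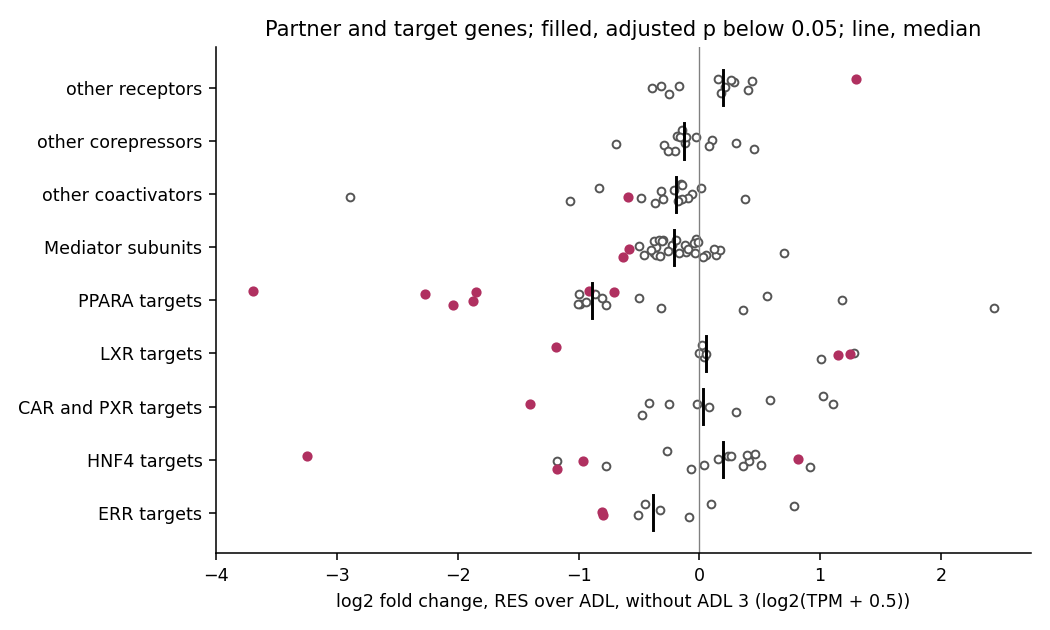
Log2 fold change, RES over ADL without ADL 3, of tested partner and target genes in 9 lists, each point 1 gene, filled where the limma adjusted p is under 0.05, with the list median as a line. The PPARA target list has 7 filled points, all lower in RES, where 7.59% of all genes were called lower. The medians of the corepressor and Mediator lists are -0.13 and -0.21, beside -0.13 over all genes.

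Neither liver X receptor passed with or without ADL 3. NR1H3 was at 67.3, 49.2, 39.4 and 68.0 TPM in ADL 1 to ADL 4 and at 47.2, 65.9, 51.4 and 57.6 TPM in RES 1 to RES 4, the RES lambs all inside the ADL range. Its log2 fold change was 0.01 (SE 0.21). The more widely expressed NR1H2 had 24.7 ± 4.94 TPM in ADL and 23.1 ± 0.824 in RES. Of 9 tested LXR target genes other than NR1H3 itself, 0 passed in 8 lambs, 5 had positive and 4 negative fold changes, and the median was 0.0012. At an unadjusted limma p under 0.05 there were 3, where 9.7% of all genes passed that limit. Without ADL 3, ABCG8 (log2 fold change 1.15, SE 0.26, adjusted p = 0.0353) and ABCG5 (log2 fold change 1.25, SE 0.29, adjusted p = 0.0355) rose, which together form the transporter that sends sterols into bile. ABCG8 was at 11.1, 5.66, 11.8 and 6.45 TPM in ADL 1 to ADL 4 and at 15.3, 24.3, 13.5 and 16.8 TPM in RES 1 to RES 4, without overlap. LPCAT3, an enzyme that puts polyunsaturated fatty acids into phospholipids, fell without ADL 3 (-1.18, SE 0.29, adjusted p = 0.0416), but not after rescaling (0.0757).

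Other receptors showed differences within the spread of lambs. RXRB, a retinoid X receptor, averaged 19.7 ± 2.87 TPM in ADL and 19.2 ± 0.219 in RES. RXRG averaged 2.60 ± 2.56 and 3.29 ± 2.67 TPM. NR5A2, which drives bile acid and cholesterol transport genes, had 8.41 ± 2.73 and 11.2 ± 2.52 TPM (log2 fold change 0.42, SE 0.27, limma adjusted p = 0.679). The vitamin D receptor VDR, in rodents mostly a gene of liver cells other than hepatocytes, had 3.01 ± 0.476 and 3.51 ± 0.74 TPM. RORA, a receptor of the circadian clock, had 5.28 ± 2.48 and 4.84 ± 1.67 TPM. The COUP transcription factors NR2F1 and NR2F2, known from vessels and mesenchyme, had 4.40 ± 0.524 and 23.1 ± 2.75 TPM in ADL and 4.30 ± 0.131 and 20.1 ± 3.06 in RES. Summed sinusoidal endothelial markers beside them were 350 to 576 TPM in ADL and 356 to 488 across RES, and their part in NR2F2 was not tested. The related NR2F6 had 41.6 ± 17.2 TPM in ADL and 43.9 ± 11.1 in RES.

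The NR4A genes, immediate early receptors that respond within minutes to hormones and handling, were near the floor in every lamb. NR4A1 was at 1.00, 0.848, 0.585 and 1.21 TPM in ADL 1 to ADL 4 and at 0.975, 0.852, 1.14 and 0.771 TPM in RES 1 to RES 4, from 25 to 47 reads. ADL 3 was the lowest lamb for NR4A1, NR4A2 and NR4A3, and the other lambs of both groups overlapped. NR4A2 averaged 0.466 ± 0.189 TPM in ADL and 0.433 ± 0.0964 in RES. NR4A3 averaged 0.243 ± 0.15 and 0.201 ± 0.0886 TPM. The summed TPM of 17 other immediate early genes was also lowest in ADL 3 (209 TPM), with 335 to 626 in ADL 1, ADL 2 and ADL 4 and 273 to 544 across RES, and 0 of 15 tested passed with or without ADL 3 (0 at an unadjusted limma p under 0.05 in 8 lambs). The mineralocorticoid receptor NR3C2 had 0.630 ± 0.146 and 0.513 ± 0.205 TPM. NR6A1, a germ cell receptor, had 0.601 ± 0.125 and 0.850 ± 0.192 TPM, and ESRRG 0.00643 ± 0.00354 and 0.00252 ± 0.00326. Fitted without a filter on low values, none of these low genes passed, NR6A1 having the smallest adjusted p (0.671).

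No coregulator passed with or without ADL 3. The corepressor NCOR1 was at 19.0, 16.3, 15.3 and 16.1 TPM in ADL 1 to ADL 4 and at 17.3, 17.8, 15.8 and 15.4 TPM in RES 1 to RES 4, with overlap throughout. Its log2 fold change was -0.01 (SE 0.14). The coactivators NCOA1, NCOA2 and NCOA3 had 5.89 ± 0.832, 12.9 ± 1.37 and 8.79 ± 0.326 TPM in ADL and 5.69 ± 0.339, 12.1 ± 0.904 and 8.77 ± 0.772 in RES, with log2 fold changes of -0.04, -0.09 and -0.01 (SE 0.15, 0.14 and 0.14). NRIP1, a corepressor of metabolic genes, had 5.96 ± 1.72 and 5.78 ± 0.266 TPM. MED1 had 15.5 ± 2.06 and 13.9 ± 0.741 TPM (log2 fold change -0.14, SE 0.15), and its RES lambs (13.0 to 14.7 TPM) lay below ADL 1, ADL 2 and ADL 4 (16.1 to 17.2) and above ADL 3 (12.5).

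PPARGC1B, the beta form of the PGC-1 coactivators of ESRRA, was at 1.42, 0.641, 0.316 and 0.778 TPM in ADL 1 to ADL 4 and at 0.586, 0.588, 0.559 and 0.532 TPM in RES 1 to RES 4. The RES lambs were nearly equal and lay below ADL 1, ADL 2 and ADL 4 and above ADL 3. This order of lambs was shared by ESRRA, HNF4G, NR1H2, RXRB, MED1, NR2C1 and NR2C2 and was not particular to PPARGC1B and ESRRA. All RES lambs lay below ADL 1, ADL 2 and ADL 4 in 21.7% of all tested genes. With a mean of 0.677 TPM it was below the filter. Fitted without that filter it did not pass with 8 lambs (log2 fold change -0.21, SE 0.23, limma adjusted p = 0.8286) or without ADL 3 (-0.40, SE 0.19, adjusted p = 0.277).

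Of 14 other corepressors and 18 other coactivators tested, 0 passed in 8 lambs (0 and 1 at an unadjusted limma p under 0.05). Without ADL 3, PRMT1, an arginine methyltransferase, fell by 0.59 (SE 0.10, adjusted p = 0.0161), a call lost after rescaling (0.0602). The methyltransferase CARM1 and the corepressor subunit TBL1XR1, each with the smallest limma p of its list, had 18.7 ± 1.91 and 17.8 ± 1.90 TPM in ADL and 23.7 ± 2.47 and 21.3 ± 0.443 in RES. Neither passed with 8 lambs or without ADL 3, and both passed without ADL 3 after rescaling. Of 30 other Mediator subunits tested, 0 passed in 8 lambs (1 at an unadjusted limma p under 0.05). MED7 and MED19 fell without ADL 3, by 0.63 and 0.58, and passed after rescaling too (limma adjusted p = 0.0377 and 0.0394). MED25, a subunit that human work ties to retinoid receptors and HNF4A, is higher in RES in the authors' deposited table (log2 fold change 0.81, adjusted p = 0.00457). It was at 35.6, 23.1, 19.6 and 23.0 TPM in ADL 1 to ADL 4 and at 42.9, 44.6, 61.1 and 31.2 TPM in RES 1 to RES 4, where RES 4 was below ADL 1. MED25 did not pass in limma with 8 lambs (0.81, SE 0.24, adjusted p = 0.333) or without ADL 3 (adjusted p = 0.101). It passed without ADL 3 after rescaling (limma adjusted p = 0.0432).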

How the data were processed

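Liver RNA of 4 ADL and 4 RES lambs was sequenced from both ends, 1 library per lamb. Groups, lamb numbers, ages and weights come from the labels. The submitters' processing notes name bcl2fastq 1.8.4 and, for the authors' comparison, DESeq2 1.12.4. Aligner, read counter and build were not stated in any source used. The deposited table gives the authors' TPM per lamb. Per the file headers it also holds their DESeq2 results: a mean signal of normalised reads, log2 fold changes (shrunken, with SE), the score tested, and p-values before and after adjustment. TPM times listed gene length was a whole multiple of 1 step per lamb (100% of values above 0, within 0.001), so whole reads were recovered, and their scaled means equalled the authors' deposited means in 22465 genes. Values quoted as the authors' were copied, not refitted.

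The test was that of limma 3.58.1 (R 4.3.3) on log2(TPM + 0.5) of genes averaging at least 1 TPM, with a trended prior, two-sided, Benjamini-Hochberg adjusted over all genes at 0.05. All p-values measure the spread between separate lambs. The members and gene lists were chosen with earlier results of these data known, and lists are described by counts and medians only. Of 249 list names, 227 were matched (223 by symbol, 3 through the identifiers of a RefSeq reference and 1 by alias), counting a gene once per list and no member in a list of targets. By rule, values in every lamb are given for members with an unadjusted p under 0.05, for those with separated groups, for the 3 with the largest fold change among calls without ADL 3, and for PPARA, HNF4A, NR1I3, NR1I2, NR1H3, NR4A1, NCOR1 and PPARGC1B. Of each other list, up to 3 passing genes or the gene with the smallest p are named; some genes that the rule names are left out of the text. Lamb values of RXRG and NR2C1, and the naming of PCK1, were added after their values were seen. Strand use in counting is not stated, and 8 members overlap another listed gene, among them PCP4L1 (98.3 reads on average) over NR1I3. Reads of similar genes may be counted for the wrong copy. The procedure was tested on simulated reads, drawn with the same dispersion for every gene and no outlying lamb. That test does not cover a library that stands apart as ADL 3 does. Alternatives were other pseudocounts, filters and scalings, age, the lamb number as a block, a constant prior, sample weights, voom on recovered reads and leaving out each lamb.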

Additional observations from a re-analysis of the deposited data

Results flagged for a closer look

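RORA, the clock receptor, stood apart in 1 lamb. ADL 1 had 9.003 TPM of RORA (532 reads), where the other 3 ADL lambs lay between 3.93 and 4.19 TPM, a gap of 0.95 of the group's range, beyond Dixon's critical value. RES 3, at 7.16 TPM, was the next highest lamb. The test was applied to 68 sets of 4 lambs, and chance flags about 5% of such sets.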

How the results depend on the processing

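Of all genes tested, 1 passed with 8 lambs, 0 without a filter on low values or with median-of-ratios scaling, and 1969 with sample quality weights. Leaving out 1 lamb gave 0 to 1382, the highest without ADL 3 and 49 without RES 4. The members that passed were 0 with 8 lambs, 5 with quality weights and 0 to 5 with 1 lamb left out. Of the alternatives chosen after seeing the data, leaving out ADL 3 gave 1150 genes and 5 members with median-of-ratios scaling and 870 genes and 3 members without a filter, and leaving out ADL 3 and RES 4 gave 1145 genes and 4 members. Members with separate groups numbered 2, then 0 with median-of-ratios scaling, 1 with quantile normalization and 2 to 9 with 1 lamb left out. By the authors' deposited adjusted p, 0 members were under 0.05 and 1 under 0.1.

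With lamb number as a replicate block, 0 genes and 0 members passed. Same-numbered lambs correlated at 0.112, -0.00143, -0.0439 and 0.159 in their deviations from the group means, and only for lamb 4 was its own number the highest. No label says that a number marks a shared litter, batch or day, but the lambs numbered 1 were both slaughtered at 33 days and those numbered 4 at 36 days.

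The cause of sign changes in small fold changes was not tested. With 1 lamb left out, HNF4A ranged from -0.27 to 0.14 (positive without ADL 4), NR1I2 from -0.26 to 0.29, NR1H3 from -0.14 to 0.12 (-0.16 without ADL 3 and RES 4) and NCOR1 from -0.049 to 0.052. NR1I2 was 0.027 with median-of-ratios scaling and 0.021 with quality weights. NR1H3 was -0.032 with age as a covariate, -0.24 with quality weights and -0.14 without both ADL 3 and the filter. NCOR1 was 0.040 with median-of-ratios scaling, 0.045 with quantile normalization, 0.012 with quality weights and 0.096 without ADL 3 after median-of-ratios scaling. NR1I3, ESR1, ESRRA, HNF4G and NR2C1 kept their direction in every alternative. Reads per lamb were 0 to 3 for ESRRG, 4 to 19 for NR4A3, 9 to 27 for NR4A2 and 15 to 27 for PPARG, and counting error was not separated from the spread between lambs.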
